A study of Ovis aries with 49 samples.

Results

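The growth hormone receptor and insulin-like growth factor (IGF) axis was followed across 5 adipose depots of lambs at 7 and 28 days of age. The axis was taken as the receptor GHR and the binding protein IGFBP5 together with IGF1, IGF2, IGF1R, IGF2R, IGFBP2, IGFBP3, IGFBP4 and IGFBP7, wherever the table held them. Of these 10 genes, 7 were among the 10273 probe sets analysed here, each on 1 probe set, and IGF2, IGFBP3 and IGFBP4 were not analysed. GHR rose between the ages in perirenal fat, although its change was not called different between depots, and its mean at 28 days was highest there. Perirenal GHR at 28 days was not called different from that of subcutaneous or omental fat. Omental fat gained IGFBP2, and subcutaneous fat held the most IGFBP5 at 28 days. Epicardial fat at 7 days read lowest for GHR and highest for IGF1R. GHR, IGF1, IGFBP2, IGFBP5 and IGFBP7 were higher at 28 days in the mean of the depots, although IGF1 and IGFBP5 were not called so after quantile normalization.

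Growth hormone from the pituitary acts through GHR, a cytokine-type receptor that signals through JAK2 and STAT5, and in adipose tissue it promotes lipolysis and restrains lipid storage. One of its main targets is IGF1, a peptide made in the liver and locally in many tissues, which acts through the tyrosine kinase receptor IGF1R to promote the growth, survival and differentiation of cells, preadipocytes included. IGF2R clears IGF2 from the cell surface and carries lysosomal enzymes, while the IGF-binding proteins hold IGFs in blood and tissue and so set how much reaches the receptor.

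Total RNA of epicardial, omental, perirenal, sternal and subcutaneous adipose tissue was measured on 49 Affymetrix Human U133 Plus arrays, 24 from lambs of 7 days and 25 from lambs of 28 days. Each depot and age formed 1 group of 5 arrays, except subcutaneous fat at 7 days with 4. By the study's methods, RNA came from more tissue at 28 than at 7 days, so age and tissue amount cannot be told apart. The lambs were non-identical twins, matched for sex within a pair, of which 1 per mother was taken at each age. The tests between the ages did not use these pairs, which the labels do not give. No treatment or strain in the labels separated the groups, beyond the letter C in every title, which the labels do not explain. The study's methods name Bluefaced Leicester cross Swaledale ewes, fed a control diet or that diet with canola oil. The labels do not give the diet of the mothers of these lambs. Arrays are named here by letters that stand for the replicate numbers of the labels, A to G for the 7 numbers at 7 days and H to O for the 8 at 28 days. The study's methods take the depots of an age from the same lambs, and most letters recur across depots, although the labels do not define a number as a lamb. Arrays were fitted as independent, and the result with the number as a replicate block is given beside each call of a depot difference that it ended. The p-values measure the scatter between arrays, and arrays of different depots may share a lamb.

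Values are log2 signals. They ran from 2.49 to 14.04 over the table and 82.7% of them were under 4, and sheep RNA was read by probes designed for human transcripts, so a low value may mean little transcript or weak binding. Many probe sets took exactly the same value on several arrays, and 93.1% of all probe sets had a value shared by at least 5 arrays. For GHR this repeated value was 5.50, on which 16 arrays lay, with 15 below and 18 above it. For IGF1 it was 3.77 with 12 arrays, for IGF1R 3.43 with 9, for IGF2R 2.69 with 26, for IGFBP2 2.98 with 18 and for IGFBP5 3.41 with 7. IGFBP7, with signals of 11.1 to 12.6, had at most 2 arrays on 1 value. Each gene is compared below only with itself, since the brightness of different probe sets is not on a common scale. In these pieces of whole tissue, fewer cells of a type and less RNA per cell cannot be told apart.

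A probe set was called at a limma p-value of at most 0.05 after Benjamini-Hochberg adjustment over all probe sets. At 7 days, 2 of the 7 genes, GHR and IGF1R, differed over the 5 depots by the F test, where 8.16% of all probe sets were called. At 28 days GHR, IGF1, IGFBP2 and IGFBP5 did so, 4 of 7 genes, against 20.0% of all probe sets. With the depots of an age put in order of their means, 4 of the 56 pairs of neighbouring depots over the 7 genes were called different. These pairs were epicardial and subcutaneous fat for GHR at 7 days, epicardial and perirenal fat for IGF1R at 7 days, and, at 28 days, subcutaneous and omental fat for IGFBP5 and for IGFBP2.

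**Figure D1:**
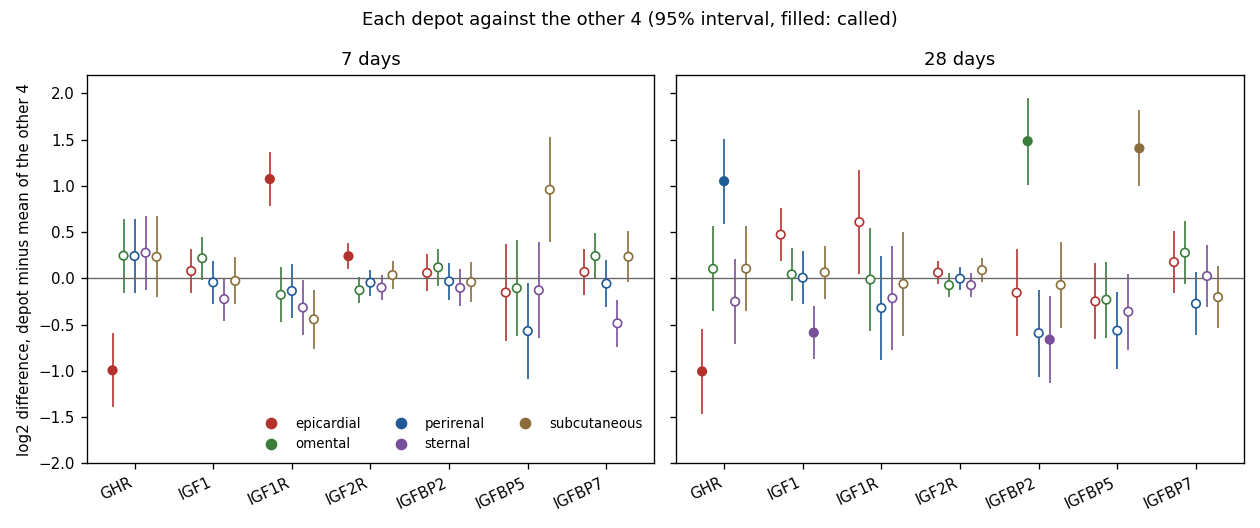
Difference of each depot from the mean of the other 4 depots at 7 and 28 days, in log2 units on the vertical axis, for the 7 genes on the horizontal axis. Points are limma estimates, lines their 95% intervals and filled points the calls, among which epicardial IGF1R at 7 days (1.07), omental IGFBP2 (1.48) and subcutaneous IGFBP5 (1.41) at 28 days stand highest.

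GHR, probe set 205498_at, binds growth hormone at the cell surface. At 7 days GHR was lowest in epicardial fat, where arrays A, C, D, E and G read 4.86, 5.49, 3.30, 4.92 and 3.98. All 5 omental arrays read 5.50, and the arrays of perirenal, sternal and subcutaneous fat lay between 5.39 and 5.71. Epicardial arrays A, D, E and G lay below every array of the other depots, and array C below all omental arrays but within the range of the rest. The mean was 4.51 ± 0.87 (SD, n = 5) in epicardial fat and between 5.49 and 5.53 in the other depots. Epicardial fat lay below the other 4 by -0.99 ± 0.19 (SE, 95% interval -1.40 to -0.59, adjusted p = 0.00313), in a comparison that called 4.07% of probe sets. Its pairwise differences ran from -1.02 against sternal fat (adjusted p = 0.0177, 3.93% of probe sets called) to -0.98 against subcutaneous fat (adjusted p = 0.0451, 2.42% called), with -0.99 against both omental fat (adjusted p = 0.0205, 4.18% called) and perirenal fat (adjusted p = 0.0288, 2.37% called). The other 4 depots could not be ordered, since their pairs differed by at most 0.04 with an adjusted p of 1.

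All of the epicardial signal for GHR at 7 days was under the repeated value of 5.50. With lower values raised to it, an alternative chosen after seeing the data, the epicardial difference became -0.02 (adjusted p = 0.841) and the F test had an adjusted p of 0.782, against 0.0228 (F = 6.68) with the values as deposited. Without epicardial array G the F test had an adjusted p of 0.0958 and all 4 pairwise calls were lost (adjusted p 0.0643 to 0.132). The call against subcutaneous fat was lost without any of 20 single arrays and that against perirenal fat without any of 5, array G included. With the replicate block the difference from subcutaneous fat was -0.96 (adjusted p = 0.111). Leaving out sternal and subcutaneous arrays with a signal above 4 for CKM, the muscle creatine kinase, kept 1 of 4 subcutaneous arrays at 7 days. It gave an adjusted p of 0.0676 for the F test and ended the pairwise calls (adjusted p 0.0511 to 0.462), while the pairwise differences stayed at -0.99 to -1.02 and the difference from the other 4 depots was still called (adjusted p = 0.0185). Heart muscle transcripts were read in epicardial fat. Of a list of 12 heart muscle genes, 7 were measured (ACTC1, MYH6, MYH7, MYL2, PLN, RYR2 and TNNI3), and the log2 of their summed signal was 10.8 to 13.3 in epicardial fat at 7 days against 5.47 to 5.81 in omental, perirenal and sternal fat. Arrays D and G, lowest for GHR, had the highest sums, 13.34 each. Without them, another alternative chosen after seeing the data, GHR still differed by -0.41 (adjusted p = 0.00687). The part of heart muscle in the GHR result was not tested further.

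At 28 days GHR was highest in perirenal fat, with 6.49, 6.42, 6.69, 6.85 and 6.96 on arrays I, J, K, M and N and a mean of 6.68 ± 0.23 (SD, n = 5). Omental arrays I, J, M, N and O read 6.04, 5.50, 6.22, 6.16 and 5.70, and subcutaneous arrays H, I, J, M and N read 6.38, 6.57, 5.67, 5.50 and 5.50. Sternal arrays I, J, M, N and O read 5.89, 5.50, 6.29, 5.02 and 5.50. Every perirenal array exceeded every omental, sternal and epicardial array, while subcutaneous array I lay within the perirenal range. Epicardial arrays I, J, L, N and O read 5.46, 5.46, 5.47, 4.87 and 3.92, all under 5.50. The depots thus ranked perirenal (6.68), subcutaneous (5.93 ± 0.51), omental (5.92 ± 0.31), sternal (5.64 ± 0.48) and epicardial (5.04 ± 0.67), and no neighbours in that order were called different. Perirenal minus subcutaneous fat (95% interval 0.17 to 1.34) and sternal minus epicardial fat (0.02 to 1.19) nevertheless had wholly positive intervals before adjustment over all probe sets.

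The F test for GHR at 28 days gave F = 8.89 (adjusted p = 0.00284). Perirenal fat exceeded the other 4 depots by 1.05 ± 0.22 (SE, 95% interval 0.59 to 1.51, adjusted p = 0.00896), where 3.36% of probe sets were called. It exceeded epicardial fat by 1.64 (adjusted p = 0.00161, 2.16% called) and sternal fat by 1.04 (adjusted p = 0.0155, 13.6% called), whereas against subcutaneous fat 0.76 (95% interval 0.17 to 1.34) had an adjusted p of 0.194 and against omental fat 0.76 an adjusted p of 0.198. These became 0.0352 and 0.0319 with values raised to 5.50. Epicardial fat lay below the other 4 by -1.01 ± 0.22 (adjusted p = 0.0114, 3.24% of probe sets called), and without array O, whose heart muscle sum was 13.11, by -0.73 (adjusted p = 0.0612). With values raised to 5.50 the difference was -0.57 (adjusted p = 0.0463). Of the sternal and subcutaneous arrays at 28 days, 5 had CKM above 4, and without them perirenal GHR exceeded the other depots by 0.88 (adjusted p = 0.057) and sternal fat by 0.59 (adjusted p = 0.392), and after quantile normalization it exceeded sternal fat by 0.69 (adjusted p = 0.123).

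**Figure D2:**
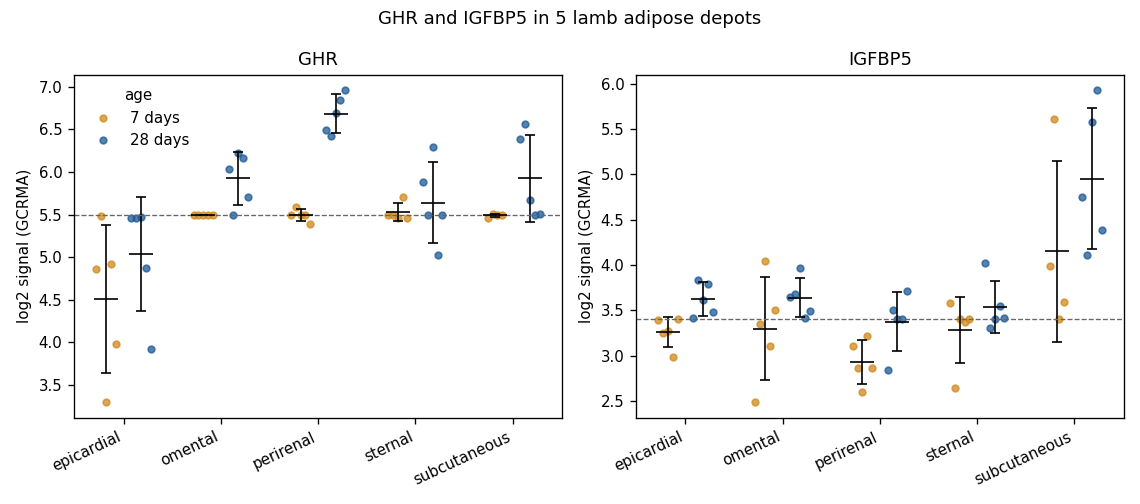
Log2 signal (vertical axis) of GHR and IGFBP5 in each array by depot (horizontal axis) and age, with bars for the mean and 1 SD, and a dashed line at the value repeated on several arrays. The 5 perirenal arrays at 28 days lie between 6.42 and 6.96 for GHR, and the 5 subcutaneous arrays at 28 days between 4.11 and 5.93 for IGFBP5.

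GHR rose with age in perirenal fat. Arrays A, B, C, D and G at 7 days read 5.50, 5.59, 5.50, 5.50 and 5.39, and the 28-day arrays given above lay all higher. The change was 1.18 ± 0.27 (SE, 95% interval 0.65 to 1.72, adjusted p = 0.00202), in a comparison that called 6.23% of probe sets higher, and no alternative or left-out array ended this call. The exact two-sided permutation test of 5 against 5 arrays gave p = 0.00794, the smallest it can give, and 0.0463 after adjustment over 35 tests of 7 genes in 5 depots. The differences between the ages elsewhere were 0.53 for epicardial (adjusted p = 0.32), 0.42 for omental (0.331), 0.11 for sternal (0.989) and 0.44 for subcutaneous fat (0.398), and the ages overlapped there. The mean change over the depots was 0.54 ± 0.12 (95% interval 0.29 to 0.78, adjusted p = 0.000612). The F test of a difference in change between depots had an adjusted p of 0.294, and the perirenal change exceeded that of the other 4 depots by 0.81 ± 0.30 (adjusted p = 0.212). That difference was 0.90 (adjusted p = 0.000575) with values raised to the repeated one and 0.89 (adjusted p = 0.0198) without the 3 epicardial arrays with a heart muscle sum above 13, both chosen after seeing the data. Beside the rise, the 7 measured of 10 brown adipocyte genes (CIDEA, EBF2, LHX8, PPARA, PPARGC1A, UCP1 and ZIC1) summed to 7.30 to 8.82 in perirenal fat at 7 days and 6.02 to 6.37 at 28 days, with UCP1, the uncoupling protein of brown fat, at a mean of 6.29 and 2.91. Their part in the result was not tested. The 9 measured of 14 adipocyte genes summed to 10.44 to 11.36 at 7 days and 10.54 to 11.02 at 28 days in perirenal fat.

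IGF1, probe set 209540_at, is the growth factor that growth hormone induces. At 7 days IGF1 did not differ over the depots by the F test (F = 1.71, adjusted p = 0.463), with signals from 2.87 in sternal array E to 4.07 in omental array A. At 28 days epicardial arrays I, J, L, N and O read 4.22, 4.28, 4.54, 4.68 and 3.82, with a mean of 4.31 ± 0.33 (SD, n = 5). Sternal arrays I, J, M, N and O read 3.21, 3.25, 3.97, 3.62 and 3.25, with a mean of 3.46 ± 0.33. Omental arrays lay between 3.75 and 4.14, subcutaneous arrays between 3.77 and 4.23, and perirenal arrays I, J, K and M at 3.77 to 2 decimals, with array N at 4.60. Sternal fat was therefore low and epicardial fat high, with sternal array M overlapping every other depot.

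The F test for IGF1 at 28 days gave F = 5.93 (adjusted p = 0.0158), and 0.0524 without sternal array I. Sternal fat lay below the other 4 depots by -0.59 ± 0.14 (SE, 95% interval -0.88 to -0.30, adjusted p = 0.00466), and below epicardial fat, which exceeded it by 0.85 (adjusted p = 0.00253, 12.2% of probe sets called). In the first of these comparisons 18.4% of all probe sets were called lower in sternal fat and the median of all was -0.07, and after quantile normalization the IGF1 difference was -0.29 (adjusted p = 0.22). It was -0.44 (adjusted p = 0.26) without the arrays with CKM above 4 and -0.24 (adjusted p = 0.248) with values raised to the repeated one, and the F test and the difference between epicardial and sternal fat were lost in all 3 of these settings. Epicardial fat lay above the other depots by 0.47 (adjusted p = 0.0652), and by 0.51 without perirenal array N (adjusted p = 0.0169), 0.60 without epicardial array O (0.0263) and 0.50 without sternal array M (0.0316).

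Epicardial IGF1 was higher at 28 than at 7 days, when arrays A, C, D, E and G read 4.00, 3.77, 3.59, 3.66 and 3.59. The ages overlapped through 28-day array O and 7-day array A. The change was 0.59 ± 0.16 (95% interval 0.26 to 0.91, adjusted p = 0.0212), where 4.21% of probe sets were called higher. It was no longer called without any of 7-day arrays D and G and 28-day arrays L and N (adjusted p up to 0.0938), after quantile normalization (0.149), without the 3 epicardial arrays with a heart muscle sum above 13 (0.0564), in a fit of the 2 groups alone (0.114) or by the exact permutation test (adjusted p = 0.0794). The mean change of IGF1 over the depots was 0.27 ± 0.07 (adjusted p = 0.00436), and 0.11 after quantile normalization (adjusted p = 0.345).

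IGF1R, probe set 203627_at, is the receptor kinase through which IGF1 signals. At 7 days epicardial arrays A, C, D, E and G read 4.25, 3.88, 5.10, 3.80 and 4.84 for IGF1R. Every one of them exceeded every array of the other depots, which lay at 3.29 to 3.43 in omental, 3.29 to 3.53 in perirenal, 3.08 to 3.43 in sternal and 2.85 to 3.36 in subcutaneous fat. The F test gave F = 14.62 (adjusted p = 0.000586) and epicardial fat exceeded the other 4 by 1.07 ± 0.14 (SE, 95% interval 0.78 to 1.37, adjusted p = 5.05e-05). The pairwise differences were 1.00 from omental, 0.97 from perirenal, 1.11 from sternal and 1.21 from subcutaneous fat, with adjusted p from 0.000659 to 0.00305. The pairwise calls were lost in fits of the 2 depots alone (adjusted p 0.0795 to 0.235), whereas the difference from the other 4 depots was called in every setting and without any single array. Without arrays D and G, which had the highest heart muscle sums, it was 0.67 (adjusted p = 0.000305). The part of heart muscle in the IGF1R result was not tested further.

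At 28 days IGF1R did not differ over the depots by the F test (F = 1.43, adjusted p = 0.459). Epicardial arrays I, J, L, N and O read 3.65, 5.19, 3.85, 3.43 and 5.10, and the other depots reached 4.37 in omental array I and 4.73 in subcutaneous array J. The epicardial difference was 0.61 with a 95% interval of 0.05 to 1.17 (adjusted p = 0.302). The mean change of IGF1R with age was 0.24 with an interval of -0.02 to 0.49 (adjusted p = 0.173). Arrays I and N, with the 2 lowest heart muscle sums of epicardial fat (5.66 and 10.58), had the 2 lowest IGF1R signals of that depot at 28 days. Arrays L, J and O, with sums of 11.99, 12.06 and 13.11, read 3.85, 5.19 and 5.10. At 7 days epicardial arrays A, C and E, with sums of 10.83, 11.47 and 12.60, read 4.25, 3.88 and 3.80. Arrays D and G, with 13.34 each, read 5.10 and 4.84. Over all 49 arrays GHR and IGF1R had a Pearson correlation of -0.46, given as a description, since the arrays share depots, ages and the muscle signal.

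**Figure D3:**
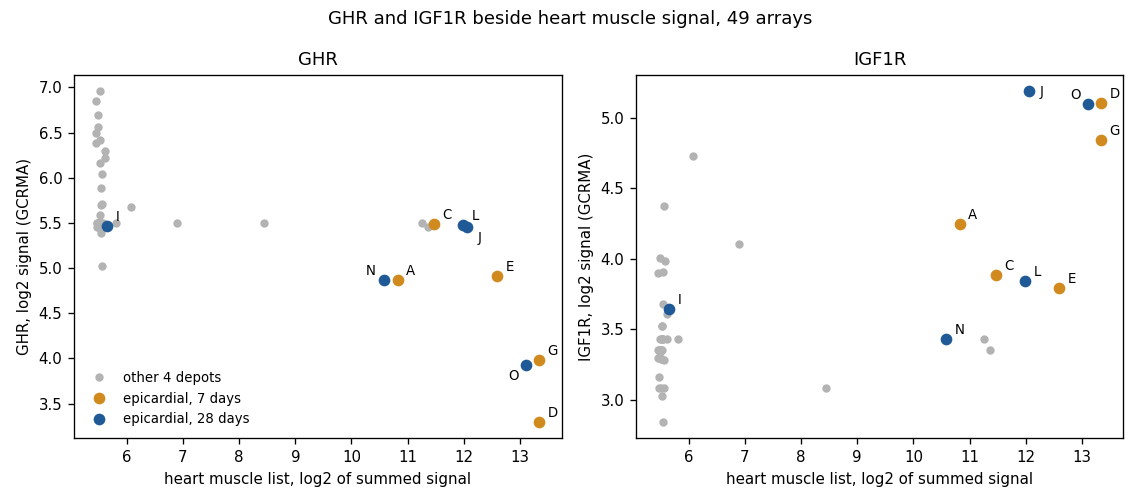
GHR and IGF1R (vertical axes, log2 signal) in each of the 49 arrays against the log2 of the summed signal of 7 heart muscle genes (horizontal axes), with letters on the epicardial arrays. Arrays D and G at 7 days and O at 28 days, with sums above 13, are lowest for GHR (3.30 to 3.98), and read 4.84 to 5.10 for IGF1R. The only sternal and subcutaneous arrays with sums above 11 are sternal J at 28 days and subcutaneous A at 7 days. They read 5.50 and 5.46 for GHR and 3.43 and 3.36 for IGF1R. Their skeletal muscle sums are 13.54 and 13.95, above every epicardial array.

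IGF2R, probe set 201393_s_at, is the receptor that takes IGF2 to the lysosome. Its signals were between 2.49 and 3.18 on all arrays, and every array of perirenal fat at 7 days and of omental and sternal fat at 28 days read 2.69. Epicardial arrays A, C, D, E and G at 7 days read 2.69, 3.16, 2.72, 2.83 and 3.18, of which C and G exceeded every other array at that age. Epicardial fat lay above the other 4 by 0.24 ± 0.07 (SE, adjusted p = 0.047), a call that was lost with the replicate block (adjusted p = 0.126), without any of 20 single arrays (adjusted p up to 0.235, without array G) and without arrays D and G together (adjusted p = 0.147). It was lost too after quantile normalization (0.0792), with trend and robust moderation (0.0569) and with values raised to the repeated one (0.0593). The F tests gave an adjusted p of 0.12 at 7 days and 0.543 at 28 days, and the mean change with age was 0.02 (95% interval -0.05 to 0.10, adjusted p = 0.727).

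IGFBP2, probe set 202718_at, is a binding protein secreted by adipocytes among other cells, and its gene lies beside that of IGFBP5 in the sheep annotation. At 7 days IGFBP2 lay between 2.68 and 2.99 on all but 2 arrays, epicardial array E at 3.49 and omental array C at 3.66, and the F test had an adjusted p of 0.762. At 28 days omental arrays I, J, M, N and O read 6.05, 3.68, 4.62, 4.59 and 4.13, with a mean of 4.61 ± 0.89 (SD, n = 5). Epicardial arrays I, J, L, N and O read 2.92, 3.05, 3.91, 3.07 and 3.56, and subcutaneous arrays H, I, J, M and N read 3.15, 3.25, 3.53, 3.94 and 2.98. Perirenal fat lay at 2.86 to 3.12 and sternal fat at 2.70 to 2.98. Omental fat was highest, overlapping epicardial and subcutaneous fat only through array J, and perirenal and sternal fat were at the repeated value or close to it.

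The F test for IGFBP2 at 28 days gave F = 11.75 (adjusted p = 0.000728), and omental fat exceeded the other 4 by 1.48 ± 0.23 (SE, 95% interval 1.01 to 1.95, adjusted p = 0.000328), where 5.12% of probe sets were called. It exceeded epicardial fat by 1.31 (adjusted p = 0.0121, 3.07% called), perirenal fat by 1.66 (adjusted p = 0.00173, 2.87% called), sternal fat by 1.72 (adjusted p = 0.000261, 15.7% called) and subcutaneous fat by 1.24 (adjusted p = 0.024, 2.08% called). The last of these had an adjusted p of 0.0527 without subcutaneous array N, 0.0602 without the arrays with CKM above 4 and 0.0928 with the replicate block. In fits of the 2 depots alone the calls against epicardial (adjusted p = 0.205), perirenal (0.0548) and subcutaneous fat (0.311) were lost. The order was omental, subcutaneous (3.37 ± 0.38), epicardial (3.30 ± 0.42), perirenal (2.95 ± 0.11) and sternal fat (2.90 ± 0.12), of which omental and subcutaneous fat were the only neighbours that differed, a call that the replicate block ended. Sternal fat lay below the other 4 by -0.66 (adjusted p = 0.0419), where 18.4% of all probe sets were called lower. This call was lost without any of 12 single arrays (adjusted p up to 0.106, without sternal array N), with the replicate block (0.0902) and in 5 other settings, with adjusted p from 0.0531 to 0.399.

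IGFBP2 rose with age in omental fat, where arrays A, C, D, E and G at 7 days read 2.98, 3.66, 2.92, 2.98 and 2.92, all under the lowest 28-day array. The change was 1.52 ± 0.23 (SE, 95% interval 1.07 to 1.98, adjusted p = 5.06e-06), in a comparison that called 13.5% of probe sets higher, and the exact permutation test had an adjusted p of 0.0463. The changes elsewhere were 0.26 in epicardial (adjusted p = 0.689), -0.02 in perirenal (1), -0.02 in sternal (1) and 0.41 in subcutaneous fat (0.331). Among the 7 genes IGFBP2 alone changed differently between depots by the F test (F = 7.99, adjusted p = 0.00298), which called 9.17% of probe sets. The omental change exceeded the mean change of the other 4 by 1.36 ± 0.25 (95% interval 0.85 to 1.87, adjusted p = 0.000778, 3.61% of probe sets called higher). The 4 measured of 10 mesothelial genes (KRT8, KRT19, LRRN4 and WT1) summed to 6.37, 6.77, 5.02, 5.00 and 6.45 on the 7-day omental arrays in the same order, and to 7.82, 5.72, 6.26, 6.67 and 6.57 on arrays I, J, M, N and O at 28 days. Array I was highest and array J lowest at 28 days in both measures, and array C highest in both at 7 days. Arrays A and G at 7 days, at 6.37 and 6.45, exceeded array M at 28 days (6.26), but read 2.98 and 2.92 for IGFBP2 against 4.62. In epicardial fat at 28 days the mesothelial sum was 5.84 to 6.43, beside an IGFBP2 of 2.92 to 3.91. The part of mesothelium in the IGFBP2 result was not tested.

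**Figure D4:**
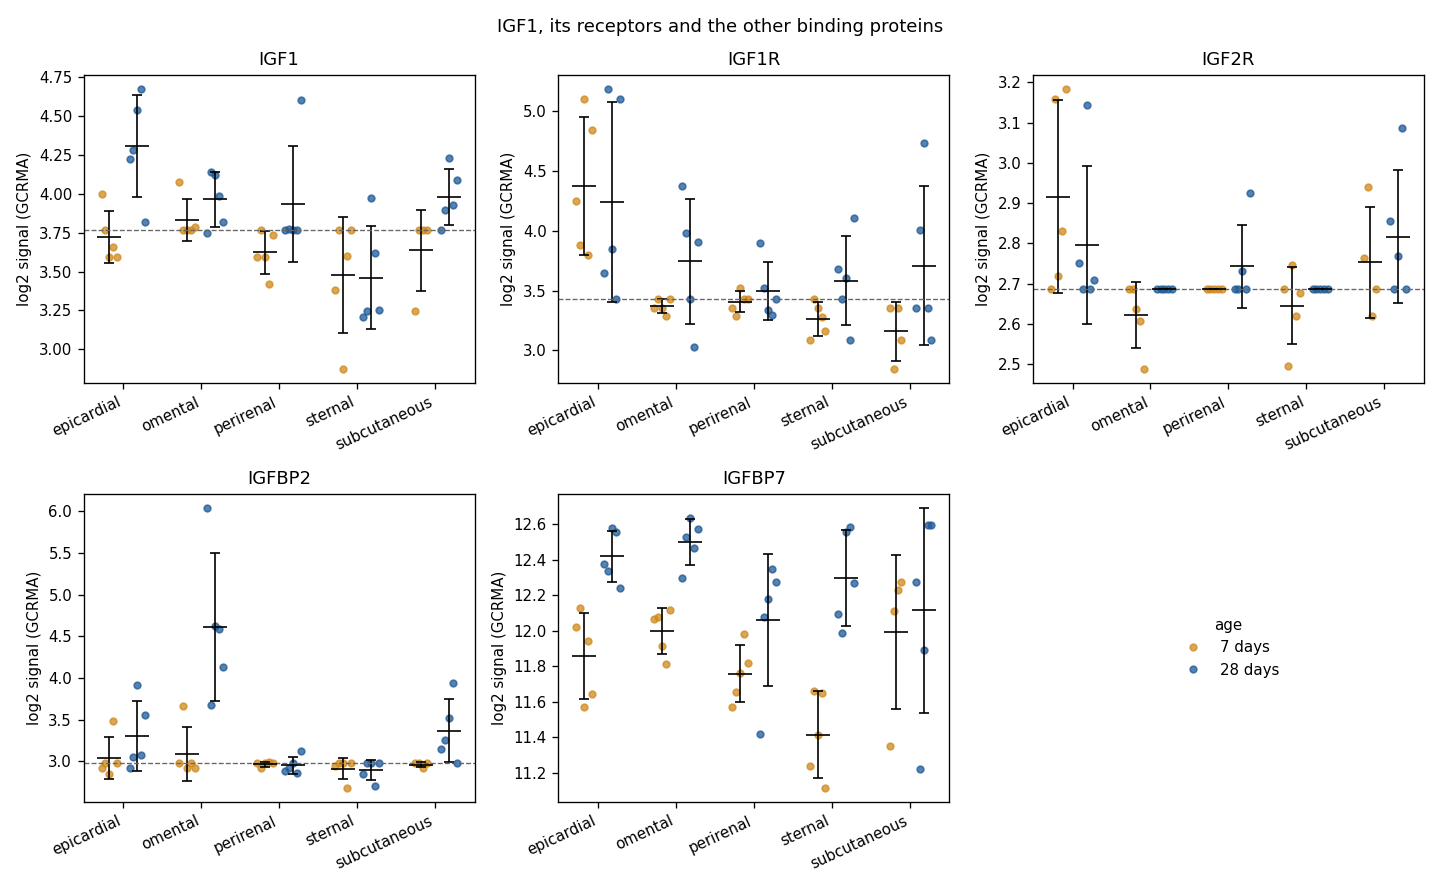
Log2 signal (vertical axes) of IGF1, IGF1R, IGF2R, IGFBP2 and IGFBP7 in each array by depot (horizontal axes) and age, with bars for the mean and 1 SD, and a dashed line at the repeated value, which is not drawn for IGFBP7. Omental IGFBP2 lies at 3.68 to 6.05 at 28 days, and epicardial IGF1R at 3.80 to 5.10 at 7 days.

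IGFBP5, probe set 203425_s_at, is a binding protein found in the extracellular matrix and made by stromal and muscle cells. At 7 days subcutaneous arrays A, E, F and G read 3.99, 5.61, 3.41 and 3.59, with a mean of 4.15 ± 1.00 (SD, n = 4). Perirenal arrays A, B, C, D and G read 3.11, 2.86, 2.59, 3.22 and 2.86, the lowest mean (2.93 ± 0.24, n = 5), and the other depots averaged 3.26 to 3.30. Array E alone stood far above the rest, and omental array D, at 4.04, lay within the subcutaneous range. The F test had an adjusted p of 0.148 and subcutaneous fat exceeded the other 4 by 0.96 (adjusted p = 0.0912), or 1.21 without array F (adjusted p = 0.042). Perirenal fat lay below subcutaneous fat by -1.22 (adjusted p = 0.0413, 4.15% of probe sets called), and by -0.74 without array E (adjusted p = 0.118). That call was lost without any of 8 single arrays and with the replicate block (adjusted p = 0.116), and the difference was -0.48 (adjusted p = 0.867) without the arrays with CKM above 4, which left subcutaneous array F alone in its group.

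At 28 days subcutaneous arrays H, I, J, M and N read 4.75, 4.11, 5.58, 5.93 and 4.39 for IGFBP5, with a mean of 4.95 ± 0.78 (SD, n = 5). All of them exceeded every array of the other depots, whose highest was sternal array I at 4.02 and lowest perirenal array I at 2.84. Epicardial fat averaged 3.63 ± 0.19, omental 3.64 ± 0.21, sternal 3.54 ± 0.28 and perirenal 3.37 ± 0.32, and their pairs differed by at most 0.27 with adjusted p of 0.742 or more. The F test gave F = 12.87 (adjusted p = 0.000463) and subcutaneous fat exceeded the other 4 by 1.41 ± 0.20 (SE, 95% interval 0.99 to 1.82, adjusted p = 0.00022), where 3.04% of probe sets were called. The differences were 1.32 from epicardial (3.02% called), 1.31 from omental, 1.58 from perirenal (2.51% called) and 1.41 from sternal fat (11.3% called), with adjusted p from 0.000733 to 0.00533. With the replicate block the epicardial pair had an adjusted p of 0.0537, and in fits of the 2 depots alone all 4 pairs were lost (adjusted p 0.0668 to 0.172).

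Subcutaneous arrays J and M, highest for IGFBP5 at 28 days, read 7.11 and 4.11 for CKM, against less than 3 on arrays H, I and N. Sternal arrays J, N and O at 28 days were also above 4 for CKM (12.72, 4.51 and 11.32), and read 3.30, 3.55 and 3.41 for IGFBP5. Without the arrays with CKM above 4 in sternal and subcutaneous fat, subcutaneous IGFBP5 exceeded the other depots by 0.83 (adjusted p = 0.0137), and the pairwise calls against omental (adjusted p = 0.0702) and sternal fat (0.0974) were lost. At 7 days array A had the highest CKM of subcutaneous fat (12.9) and array E, highest for IGFBP5, 6.35. Array G, with 11.7 for CKM, read 3.59 for IGFBP5. The part of skeletal muscle in these differences was not tested further. The fibroblast and matrix genes, 15 measured of 16, summed to 12.5 to 13.7 in subcutaneous fat at 28 days and 12.03 to 13.74 in sternal fat.

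In subcutaneous fat limma called 0 of the 7 genes between the ages, where 7.68% of all probe sets were called higher, with 1 at an unadjusted p under 0.05 and 0 called by the exact permutation test. The IGFBP5 differences between the ages were 0.80 in subcutaneous (adjusted p = 0.0956), 0.45 in perirenal, 0.36 in epicardial, 0.34 in omental and 0.26 in sternal fat. Without 7-day subcutaneous array E the subcutaneous change was 1.29 (adjusted p = 0.00219), and without 28-day array I it was 1.01 (adjusted p = 0.0331). Epicardial arrays at 28 days, from 3.41 to 3.84, all exceeded those at 7 days, from 2.99 to 3.41, and the exact permutation test had an adjusted p of 0.0463 there, against 0.637 from limma. The mean change over the depots was 0.44 ± 0.13 (SE, 95% interval 0.18 to 0.71, adjusted p = 0.00903), and was not called after quantile normalization (0.32, adjusted p = 0.102) or with values raised to the repeated one (0.26, adjusted p = 0.0911).

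IGFBP7, probe set 201162_at, is a matrix protein of vessels and stroma with low affinity for IGFs, and its signals were far above the lowest of the table. At 7 days sternal arrays B, D, E, F and G read 11.24, 11.66, 11.41, 11.65 and 11.12, below all omental arrays (11.81 to 12.12), and subcutaneous arrays A, E, F and G read 11.35, 12.11, 12.23 and 12.27. Sternal fat lay below the other 4 by -0.49 (adjusted p = 0.0524) and the F test had an adjusted p of 0.0706. Subcutaneous array A, which had the highest CKM signal, was the low array of its depot, and without it these values were -0.54 (adjusted p = 0.00488) and an adjusted p of 0.00326. Among 9 other settings the sternal difference was called in 4 (adjusted p from 0.00936 to 0.132 over the 9). The F test was likewise called in 4 of 9 (0.0117 to 0.251). At 28 days sternal arrays I, J, M, N and O read 12.09, 11.98, 12.56, 12.59 and 12.27, above every sternal array at 7 days, and the depots did not differ by the F test (adjusted p = 0.38).

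The sternal change of IGFBP7 was 0.88 ± 0.18 (SE, 95% interval 0.51 to 1.26, adjusted p = 0.00112), where 2.47% of probe sets were called higher, and no alternative or left-out array ended this call. Epicardial arrays moved from 11.57 to 12.13 at 7 days to 12.24 to 12.58 at 28 days, and omental arrays from 11.81 to 12.12 to 12.30 to 12.63. Neither depot overlapped between the ages, although limma gave an adjusted p of 0.0645 for the epicardial change of 0.56 and 0.0592 for the omental change of 0.50. The adjusted p fell under 0.05 for both in the exact permutation test (0.0463), and without subcutaneous array I at 28 days (0.025 and 0.0255), subcutaneous array A at 7 days (0.042 and 0.041) or perirenal array I at 28 days (0.0448 and 0.0433). For the epicardial change it did so also without epicardial array C at 7 days (0.0471). Over 10 other settings, the exact test among them, the epicardial change was called in 4 (adjusted p from 0.0233 to 0.394 over the 10). The omental change was called in 5 of 10 (0.00567 to 0.14). The differences in perirenal (0.30) and subcutaneous fat (0.12) had adjusted p of 0.416 or more. Beside the sternal change, the fibroblast and matrix sum of sternal fat was 11.10 to 11.69 at 7 days and 12.03 to 13.74 at 28 days, and its part in the result was not tested.

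**Figure D5:**
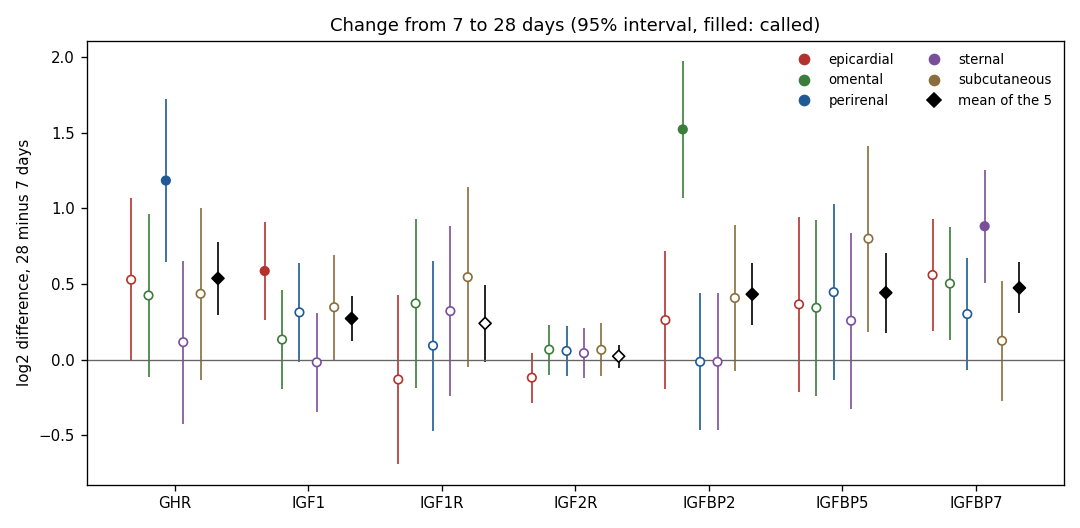
Change from 7 to 28 days in log2 units (vertical axis) of the 7 genes (horizontal axis) in each depot and in the mean of the 5 depots, with 95% intervals from limma and filled points for calls. The called changes in single depots are perirenal GHR (1.18), epicardial IGF1 (0.59), omental IGFBP2 (1.52) and sternal IGFBP7 (0.88).

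In the mean of the 5 depots, 5 of the 7 genes were called higher at 28 days and 0 lower, while 20.6% of all probe sets were called higher and 4.85% lower, with 0 further genes at an unadjusted p under 0.05. GHR, IGFBP5 and IGFBP7 had the higher mean at 28 days in 5 of 5 depots, IGF1, IGF1R and IGF2R in 4 and IGFBP2 in 3. The IGFBP7 mean change was 0.47 ± 0.08 (SE, adjusted p = 2.23e-05) and the IGFBP2 mean change 0.43 ± 0.10 (adjusted p = 0.00107). The median of the 7 mean changes was 0.43, beside 0.03 over all probe sets. Of the 35 changes in single depots, 4 were called, 1 each for GHR, IGF1, IGFBP2 and IGFBP7, all higher at 28 days.

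The wider pathway was counted on 6 lists that hold 71 further measured genes: other ligands, receptors and binding proteins, the proteases that cleave IGF-binding proteins and their inhibitors, signalling of GHR, signalling of the IGF and insulin receptors, proteins that bind IGF mRNAs, and imprinted growth genes. At 7 days 2 of the 71 genes, 2.8%, differed over the depots, beside 8.16% of all probe sets, and 20 had an unadjusted p under 0.05. They were SOCS2, an inhibitor of GHR signalling (F = 5.86, adjusted p = 0.0361), and GNAS, the imprinted G protein subunit (F = 9.83, adjusted p = 0.00438). SOCS2 read 2.49 to 2.92 in epicardial fat and averaged 2.49 to 2.56 elsewhere, and GNAS ran from a mean of 10.66 in epicardial to 11.45 in subcutaneous fat. The SOCS2 means elsewhere lay at or close to 2.49, the lowest value of the table. At such signals the arrays cannot rank a gene between depots. At 28 days 24 of 71 genes, 33.8%, differed, beside 20.0% of all probe sets. In sternal fat against the other depots 22 of the 71 were lower and 0 higher, beside 18.4% of all probe sets called lower, and the mean over all probe sets was 3.27 in the sternal arrays and 3.40 to 3.42 in the other depots at 28 days. The median sternal difference was -0.16 over the 71 genes and -0.07 over all probe sets. Between the ages 23 of the 71 genes were higher and 3 lower in the mean of the depots, beside 20.6% and 4.85% of all probe sets, with a median of 0.09 beside 0.03 over all probe sets.

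Of the 15 measured genes of GHR signalling, 8 (53.3%) differed over the depots at 28 days, beside 20.0% of all probe sets. In sternal fat against the other depots 8 of the 15 were called and 0 of them higher, beside 18.4% of all probe sets called lower. In epicardial fat 1 of the 15 was called, in omental fat 3, and in perirenal and subcutaneous fat 2 each. JAK1, a Janus kinase, differed most (F = 45.47, adjusted p = 1.63e-07), with a mean of 3.85 ± 0.29 (SD, n = 5) in omental fat, 4.54 in epicardial, 4.67 in sternal, 5.13 in perirenal and 5.27 ± 0.19 in subcutaneous fat, and the highest omental array (4.21) lay under the lowest of any other depot (4.25). JAK2, the kinase that GHR recruits, ran the other way in omental fat (F = 22.27, adjusted p = 2.31e-05), with 4.56 ± 0.31 there and 4.31 in subcutaneous fat, 3.89 and 3.86 in epicardial and perirenal fat, and a low of 3.15 ± 0.33 in sternal fat. In omental fat JAK1 fell by 1.16 between the ages (SE 0.17, adjusted p = 6.66e-06), whereas JAK2 rose by 1.25 (SE 0.16, adjusted p = 3.11e-07). The adaptor SH2B2 (adjusted p = 0.000657) averaged 4.47 in epicardial fat and 5.49 in omental fat at 28 days, and the phosphatase PTPN11 (F = 7.84) was also called. In the mean of the depots 4 of the 15 (26.7%) were higher at 28 days, near the 20.6% of all probe sets, and 0 lower, JAK2 by 0.58, SH2B2 by 0.53, the phosphatase PTPN2 by 0.16 and the kinase TYK2 by 0.10.

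Of the 34 measured genes of IGF and insulin receptor signalling, 9 (26.5%) differed over the depots at 28 days, a share near the 20.0% of all probe sets. RICTOR, a component of mTOR complex 2, averaged 7.60 in epicardial, 7.48 in perirenal, 7.15 in omental, 7.00 in subcutaneous and 6.59 in sternal fat (F = 19.23, adjusted p = 5.25e-05). GRB14, an inhibitor of the insulin receptor, averaged 3.11 ± 0.25 in epicardial fat and 2.51 to 2.60 in the other depots (F = 15.52, adjusted p = 0.000175). The GRB14 means of those other depots lay close to 2.49, the lowest value of the table. The kinase RPS6KB1 (F = 14.83) was lowest in sternal fat (3.21 ± 0.14), and AKT2 (F = 8.21), a kinase of insulin action, highest in omental fat (3.77 ± 0.35). In the mean of the depots 9 of the 34 (26.5%) were higher, near the 20.6% of all probe sets, and 1 lower at 28 days, with a median change of 0.09. RICTOR was higher by 0.44, the kinase MAP2K2 by 0.36, the adaptor GRB2 by 0.18 and the phosphatase PHLPP2 by 0.20, all with adjusted p of 0.00061 or less.

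Among the 7 measured other ligands, receptors and binding proteins, IGFBP6 and LRP1 (28.6%) differed over the depots at 28 days, beside 20.0% of all probe sets. IGFBP6, which prefers IGF2, read 3.16 to 4.11 in subcutaneous fat, averaged 3.15 in sternal fat and 2.73 to 2.82 in the others (F = 6.39, adjusted p = 0.0117). LRP1, an endocytic receptor that binds IGFBP3, averaged 4.28 in subcutaneous fat and 3.17 in sternal fat (F = 8.76, adjusted p = 0.00304). With age LRP1 was higher by 0.60, the insulin receptor INSR by 0.23, IGFBP6 by 0.21 and CALR by 0.15 in the mean of the depots, 4 of 7 genes (57.1%) beside 20.6% of all probe sets, and 0 were lower. Of the 6 measured proteases and inhibitors, limma called 0 over the depots at 28 days, with 0 at an unadjusted p under 0.05, beside 20.0% of all probe sets called. With age 2 of the 6 (33.3%) were called in the mean of the depots, beside 20.6% of all probe sets called higher and 4.85% lower. Of these, STC1, an inhibitor of IGFBP4 cleavage, was higher by 0.27 and ADAM12, a metalloprotease, lower by -0.14.

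IGF2BP2, which binds IGF2 mRNA, averaged 6.37 ± 0.17 (SD, n = 5) in epicardial fat at 28 days and 4.35 to 4.87 in the other depots (F = 12.97, adjusted p = 0.000442), and all epicardial arrays (6.13 to 6.60) exceeded all others. Of the 2 measured mRNA-binding proteins limma called 0 between the ages, with 0 at an unadjusted p under 0.05. In the mean of the depots 20.6% of all probe sets were called higher and 4.85% lower. Of the 7 measured imprinted growth genes 4 (57.1%) differed over the depots at 28 days, beside 20.0% of all probe sets. DLK1, which restrains adipocyte differentiation, averaged 4.82 ± 0.33 in epicardial fat and 3.10 to 3.84 elsewhere (F = 10.79, adjusted p = 0.0011), and CDKN1C, a cell cycle inhibitor, was lowest in sternal fat (2.64 ± 0.21, F = 14.90). That sternal mean of CDKN1C lay close to 2.49, the lowest value of the table. With age 5 of the 7 (71.4%) were higher, beside 20.6% of all probe sets, and 1 lower in the mean of the depots, GNAS by 0.43, MEG3 by 0.41, SGCE by 0.46 and CDKN1C by -0.38 among them.

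The probe sets whose signals ran most like GHR over the 49 arrays, among 1668 with 1 gene symbol and a mean of at least 4, were CNN3 (Pearson r = 0.81), GPM6B (0.79), YWHAG (0.78), OAZ1 (0.76) and REV3L (0.73). Those most opposed were ATP1B1 (-0.75), MYH7 (-0.66), SLC25A4 (-0.65), MPPED2 (-0.65) and ACTC1 (-0.64), of which MYH7 and ACTC1 are on the heart muscle list. For IGFBP5, among 1669, the most alike were ZFHX4 (0.76), TENT5A (0.70), DBN1 (0.61), ZDHHC3 (0.60) and MATN4 (0.60), and the most opposed UQCRC1 (-0.49), ACADVL (-0.49), VDAC1 (-0.48), NDUFA12 (-0.47) and PRPF8 (-0.47), several of them mitochondrial. Among the 7 genes themselves IGF1 and IGFBP7 ran most alike (0.51) and GHR and IGFBP5 had a correlation of 0.11. These correlations are descriptions over arrays that share depots and ages.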

How the data were processed

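The deposited log2 values came from GCRMA in affy, by which the authors corrected the background, normalized the arrays and summarised each probe set, with no version stated in the sources read. Of 10273 probe sets, 9780 carry 1 symbol in the platform annotation, 6 several and 487 none, and symbols there can be old. Ages came from the age field and the titles; the sample descriptions give a different range. The number of arrays limits the precision.

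Tests used limma 3.58.1 in R 4.3.3, with 1 linear model per age over 5 depots and 1 over all 10 groups, empirical Bayes moderation, 95% intervals and Benjamini-Hochberg adjustment within each comparison, and were tested on simulated data. Members and lists were chosen with earlier results of these data known. Named genes are all members, at most 4 called genes per wider list and comparison by size of F or t, and the 5 probe sets most and least like GHR and IGFBP5. List sums are log2 of summed linear signals.

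Other settings were replicate number as a fixed or random block, quantile normalization, a mean of at least 4, trend and robust moderation, array weights, fits of the 2 groups compared, and leaving out each array, or together those of sternal or subcutaneous fat whose CKM signal exceeded 4. Raising values to the repeated one, the exact permutation test and leaving out epicardial arrays with a heart muscle sum above 13 were added after seeing the data.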

Additional observations from a re-analysis of the deposited data

Results flagged for a closer look

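IGFBP2 differed between depots in its change with age (F = 7.99), and the omental change exceeded the mean of the other 4 by 1.36 log2 units. Of the 66 combinations of gene, depot and age with any spread, 14 had 1 array set apart from the rest of its group by Dixon's test, over 6 of the 7 genes, where chance gives about 1 in 20. GHR was set apart on the high side in sternal array F at 7 days (5.71) and on the low side in subcutaneous array A at 7 days (5.46). IGF1 was so on the high side in omental array A at 7 days (4.07) and perirenal array N at 28 days (4.60), and on the low side in subcutaneous array A at 7 days (3.25). IGF2R was high in epicardial array L (3.14) and perirenal array N (2.92) at 28 days. IGFBP2 was high at 7 days in epicardial array E (3.49) and omental array C (3.66), and low in perirenal array B (2.92), sternal array F (2.68) and subcutaneous array F (2.92). IGFBP5 was low in sternal array D at 7 days (2.64), and IGFBP7 was low in perirenal array I at 28 days (11.42). Many of these groups had their other arrays on the repeated value, so a small departure sufficed.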

How the results depend on the processing

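Of 46 called results for single genes, 17 kept their call in every alternative and without any single array, and 34 without any single array. The number of genes called by the F test at 7 days was 2, and 1 with values raised to the repeated one, and at 28 days 4, and 1 with probe sets of a mean of at least 4 alone. Of 35 differences of a depot from the other 4, 3 were called at 7 days, and 1 with values raised, and 6 at 28 days, 2 with the filter and 3 without the arrays with CKM above 4. Of 70 pairs, 9 were called at 7 days, 4 with values raised and 0 in fits of the 2 groups alone, and 11 at 28 days, 4 with the filter, 6 without the CKM arrays and 5 in fits of 2 groups. Of the mean changes with age 5 were called, 3 after quantile normalization and 2 with the filter. Of the differences in change, 1 was called against the other 4 depots and 1 by the F test, and each count was 0 with the filter, 2 with values raised and 2 without the epicardial arrays with a heart muscle sum above 13. The filter removes most of these genes and a fit of 2 groups has fewer arrays, while the cause of the other shifts was not tested. Sternal against subcutaneous IGFBP5 at 7 days turned from -0.87 to 0.033 without the CKM arrays (adjusted p = 1), which left 1 subcutaneous array.

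Leaving out single arrays gave, at 7 days, 1 to 3 genes by the F test, 2 to 4 differences from the other 4 depots and 5 to 11 pairs, and at 28 days 3 to 4, 5 to 6 and 10 to 14. It gave 3 to 7 changes with age in single depots, 5 to 5 mean changes, and 1 to 1 in both counts of differences in change.

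Deviations from group means correlated with a median of 0.05 among 33 pairs of arrays with the same number at 7 days and 0.06 among 39 at 28 days, against -0.01 among 197 and 211 pairs with different numbers. Of the same-number pairs 6 of 33 and 12 of 39 exceeded 0.1, against 15 of 197 and 12 of 211 of the others, a smaller share at both ages. Same-number pairs thus deviated together more often, though not in every pair. With the number as a replicate block the F tests called 2 and 4 genes, the differences from the other depots 2 and 5, and the pairs 7 and 10 at 7 and 28 days, and the random replicate block left each of these counts as it was without a block. Beside the calls named above as ended, the block changed only IGF1 in omental against sternal fat at 28 days, which it called (0.50, adjusted p = 0.0298). At the lowest signals of the table the arrays cannot rank a gene between depots.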
